A study of Mus musculus with 6 samples.

Results

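Trim58, Gp1bb and Ank1 are genes of red cells and platelets that were nearest to hypermethylated cytosines in blood stem and progenitor cells lacking Tet1. The cytosines were chosen by gene name: every row of the authors' deposited tables whose nearest annotated transcription start belongs to Trim58, Gp1bb or Ank1, which gave 14 of 6756 listed sites and 3 of 3344 genes. The 3 genes were picked because they hold many listed sites, so their numbers of sites and the sizes of their differences are described here without a test.

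Methylation was read by an enhanced form of reduced representation bisulfite sequencing, an assay weighted to CpG-rich DNA, in LSK cells sorted from bone marrow of mice 6 months old, of the strain labelled CD57BL/6. LSK cells (lineage-negative, Sca-1-positive, Kit-positive) hold the haematopoietic stem cells and their early progeny. The groups were 3 wild-type (WT) samples and 3 Tet1 knockout (Tet1 KO) samples; the labels give no other allele or agent, no description of the knockout allele, and no statement of which samples came from which mice. Each listed cytosine carries 1 value, the difference in methylation between the genotypes in percentage points, from 25 percentage points upward in size. Values per sample, coverage and p-values were not used here, so the spread between replicates and the depth behind each difference are unknown, and the identity of the sorted cells was not checked. The direction, Tet1 KO minus WT, rests on the list names and signs.

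TET1 oxidises 5-methylcytosine to 5-hydroxymethylcytosine and further forms, a route by which methyl marks can be removed. Bisulfite sequencing reads 5-methylcytosine and 5-hydroxymethylcytosine alike. Stem and progenitor cells give rise to erythroid cells, which fill with haemoglobin and lose their nucleus, and to megakaryocytes, which shed platelets, and both lineages depend on GATA1, a factor that binds the letters GATA. Trim58 encodes an E3 ubiquitin ligase of late erythroblasts that takes part in nuclear expulsion. Gp1bb encodes the beta chain of glycoprotein Ib, part of the platelet receptor for von Willebrand factor, and Ank1 encodes the ankyrin that ties the red cell's spectrin skeleton to band 3 in its membrane.

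The DNA just before the starts of Trim58 and Gp1bb is shown because the listed cytosines, by their distances, lay outside it. Each stretch is the 250 bases before the RefSeq start (build GRCm38.p6, not the mm9 build of the methylation tables), with each CG dinucleotide in capitals. Of the 3 genes, 2 had an entry in the promoter table. The first is chr11:58640215-58640464 on the forward strand and the second chr16:18622404-18622653 on the reverse strand.
Trim58: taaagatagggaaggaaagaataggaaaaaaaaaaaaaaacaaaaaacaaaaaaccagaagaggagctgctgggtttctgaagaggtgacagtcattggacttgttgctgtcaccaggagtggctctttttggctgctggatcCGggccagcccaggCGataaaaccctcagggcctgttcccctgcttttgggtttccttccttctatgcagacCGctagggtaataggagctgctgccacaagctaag
Gp1bb: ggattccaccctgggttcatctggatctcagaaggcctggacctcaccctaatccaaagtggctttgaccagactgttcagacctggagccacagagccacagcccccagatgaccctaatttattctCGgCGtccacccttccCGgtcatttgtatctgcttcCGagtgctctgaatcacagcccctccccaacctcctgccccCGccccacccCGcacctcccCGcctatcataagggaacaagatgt

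The Trim58 stretch held 3 CG dinucleotides and the Gp1bb stretch 7, beside a median of 6 over 32851 promoter stretches of the same length. Each held a single CCGG, the site of the enzyme MspI that is commonly used to cut DNA for this kind of assay, and 47.1% of all promoter stretches held at least 1. The letters GATA, counted on both strands, occurred 2 times in each stretch, and 53.6% of all promoter stretches held them at least once. These matches describe the letters alone.

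All 14 cytosines were more methylated in Tet1 KO, and none of the 3 genes had a hypomethylated site. Over all genes in the tables, 87.0% had hypermethylated sites alone, and 12.2% had at least 4 hypermethylated sites with no hypomethylated one. The 14 sites were 8 in exons and 6 in introns, with 9 on the forward and 5 on the reverse strand. No site had a promoter label, none had a CpG island label (a label the tables give to intron and intergenic sites), and 1 had a repeat label. Joining sites less than 1000 bp apart left 4 regions: 1 at Trim58, 1 at Gp1bb and 2 at Ank1. Reads were 50 bp long, per the labels' protocols, and joining sites of the same strand less than that length apart left 7 clusters. Sites within a cluster can come from the same reads, so 14 sites are not 14 separate measurements.

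**Figure D1:**
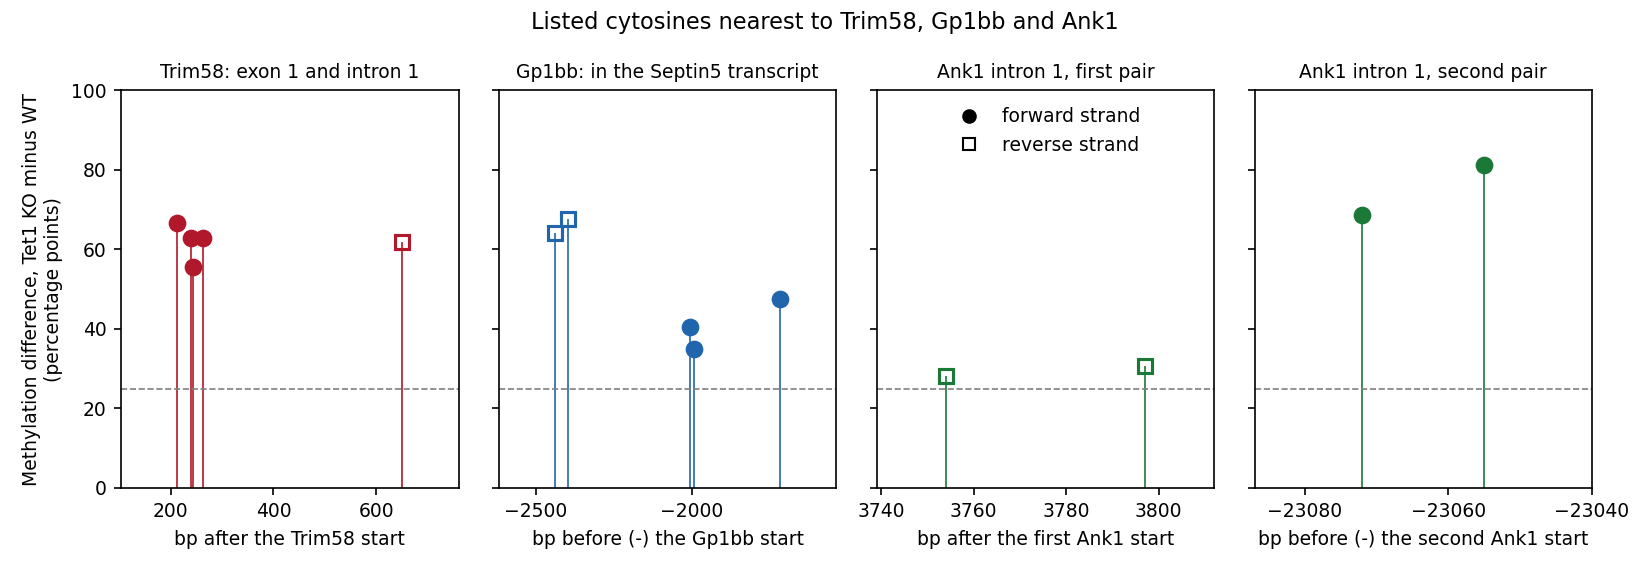
Methylation difference (Tet1 KO minus WT, percentage points, y axis) of each of the 14 cytosines against its distance in bp from a transcription start (x axis, a separate scale in each panel). Filled circles are forward-strand and open squares reverse-strand cytosines, and the dashed line marks 25 percentage points, where the lists begin. The 5 Trim58 sites lie between 55.6 and 66.7, whereas the 2 Ank1 pairs lie near 30 and above 68.

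Trim58 was methylated more in Tet1 KO just inside the gene, by 55.6 to 66.7 percentage points at its 5 listed cytosines. Its 5 sites lay on chromosome 11 from 58454180 to 58454618 (mm9), after the start at 58453967, and all were annotated to the Trim58 transcript NM_001039047. In exon 1 of 6, the authors' deposited table gave 66.7 percentage points at 213 bp after the start, 63.0 at 239 bp, 55.6 at 243 bp and 63.0 at 262 bp. The site in intron 1 of 5, on the other strand and 651 bp after the start, had 61.9 percentage points. The 4 exonic sites spanned 50 bp on the forward strand, and their mean of 62.0 percentage points was close to the value of the intronic site 389 bp away (intronic minus exonic -0.132). Thus 2 clusters that share no strand, 1 of them a single cytosine, gave almost the same difference. The depth behind each value is unknown, so how closely they truly match cannot be judged. The mean over the 5 sites was 62.0 ± 4.04 percentage points (SD over sites, not replicates).

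Trim58 combined a high mean with a narrow range. Among the 69 genes with exactly 5 sites, all hypermethylated, it ranked 5th from the highest in mean, where the median gene had 45.7 percentage points. Its range of 11.1 percentage points was the 5th narrowest of the 69, beside a median range of 24.4. When only the 35 of these genes with a single region were counted, Trim58 was again the 5th in mean and was the 3rd narrowest in range. Hypermethylated sites in exon 1 of the nearest gene numbered 393, at 191 genes, and 26 genes had at least 4 of them. The Trim58 mean in exon 1 was the 6th highest of those 26, whose means ran from 33.0 to 75.1 percentage points. Of the 5 Trim58 sites, 4 lay within 50 bp on one strand and can share reads, which can narrow a range. Of the 69 genes, 17 (Trim58 included) had 2 read-length clusters, and no rank was taken among those. These ranks are descriptions, since the same differences put Trim58 in the tables.

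The sites listed under Gp1bb lay in another gene. All 5 were annotated to transcript NM_213614, which the RefSeq table assigns to Septin5, a gene of the septin family of filament-forming GTP-binding proteins whose protein is also found in platelets. The annotated spans of Septin5 and Gp1bb overlap in RefSeq, and transcripts that read through from Septin5 into Gp1bb have been described. The files name Gp1bb because its start, at 18622496 on chromosome 16 (mm9), is the nearest. No listed site was nearest to a Septin5 start, and no listed site lay in a Septin5 transcript beyond these 5.

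The Gp1bb sites ran from 18624214 to 18624934 and lay upstream of the Gp1bb start, since Gp1bb is on the reverse strand. Counting away from that start, exon 8 of 12 of Septin5 held a site of 47.4 percentage points at 1718 bp in the authors' deposited table. Exon 7 held sites of 35.0 at 1994 bp and 40.6 at 2006 bp. Intron 5 of 11 held a site of 67.6 percentage points at 2397 bp, and exon 5 one of 64.3 at 2438 bp. The pair farther from the Gp1bb start, on the reverse strand, averaged 66.0 percentage points, and the pair in exon 7, on the forward strand, averaged 37.8, a gap of 28.2 across 391 bp. The site in exon 8 lay between the pairs in value.

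The reverse-strand pair, farthest from the Gp1bb start, thus had the largest values, although position and strand changed together there and cannot be told apart. On the forward strand, the site at 1718 bp (47.4 percentage points) exceeded those at 1994 bp (35.0) and 2006 bp (40.6). The mean over the 5 sites was 51.0 ± 14.4 percentage points (SD over sites). Gp1bb ranked 22nd from the highest in mean and 54th from the narrowest in range among the 69 genes with 5 hypermethylated sites alone. Its range was 32.7 percentage points. Over both tables, 4186 sites lay in or at a transcript that matched RefSeq, and 17.2% of them belonged to a different gene from the one with the nearest start. Of 2193 genes with a matched site, 375 had all of their matched sites in another gene. Among those, 20 genes had at least 5 such sites, all hypermethylated, and Gp1bb was among the 20.

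Ank1 was methylated more in Tet1 KO at 2 separate places of its first intron, by very unequal amounts. All 4 sites were annotated to intron 1 of 43 of the Ank1 transcript NM_001110783 on chromosome 8. The first pair, on the reverse strand, lay 3754 and 3797 bp after that transcript's start at 24085354 (mm9), and the authors' deposited table gave them 28.2 and 30.6 percentage points. The site at 3754 bp lay in an L2b element, an old LINE repeat, and the other site of that pair carried no repeat label. The second pair, on the forward strand, was 56524 bp farther on, with 68.8 percentage points at 24145675 and 81.3 at 24145692.

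The second Ank1 pair belonged by distance to a different start. It lay 60321 bp after the start of NM_001110783 but 23072 and 23055 bp before the start of NM_031158, another Ank1 transcript, which begins at 24168747. Ank1 is known to be transcribed from alternative first exons in different tissues, and the files do not say which start LSK cells use. The pairs averaged 29.4 and 75.0 percentage points, a gap of 45.6, while the sites within a pair differed by 2.43 and 12.5. Over all hypermethylated sites, 1803 neighbouring pairs on the same strand and less than 50 bp apart differed by a median of 7.70 percentage points (quartiles 3.34 and 13.8). The sites of each Ank1 pair thus differed by less than that upper quartile.

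A single mean describes Ank1 poorly. The mean over its 4 sites was 52.2 ± 26.9 percentage points (SD over sites), a value near which no site lay. The range of 53.1 percentage points was the 2nd widest among the 154 genes with exactly 4 sites, all hypermethylated, after Zcchc6 with 61.4, a gene named after its value was seen. Ank1 was also 2nd widest among the 55 of these genes with 2 regions. In mean it ranked 34th from the highest of the 154.

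Another cytosine inside Ank1 was listed under another name. It lay at 24256604 in the last intron (43 of 43) of NM_001110783, 110912 bp beyond the second pair, and the authors' deposited table gave it 30.0 percentage points. The files assign it to the microRNA gene Mir3107, whose start is 3470 bp away. In RefSeq, Mir3107 overlaps Mir486 within Ank1, and miR-486 is a microRNA of erythroid cells that is made from this host gene. By transcript rather than nearest start, Ank1 therefore had 5 sites, Gp1bb 0 and Trim58 5.

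**Figure D2:**
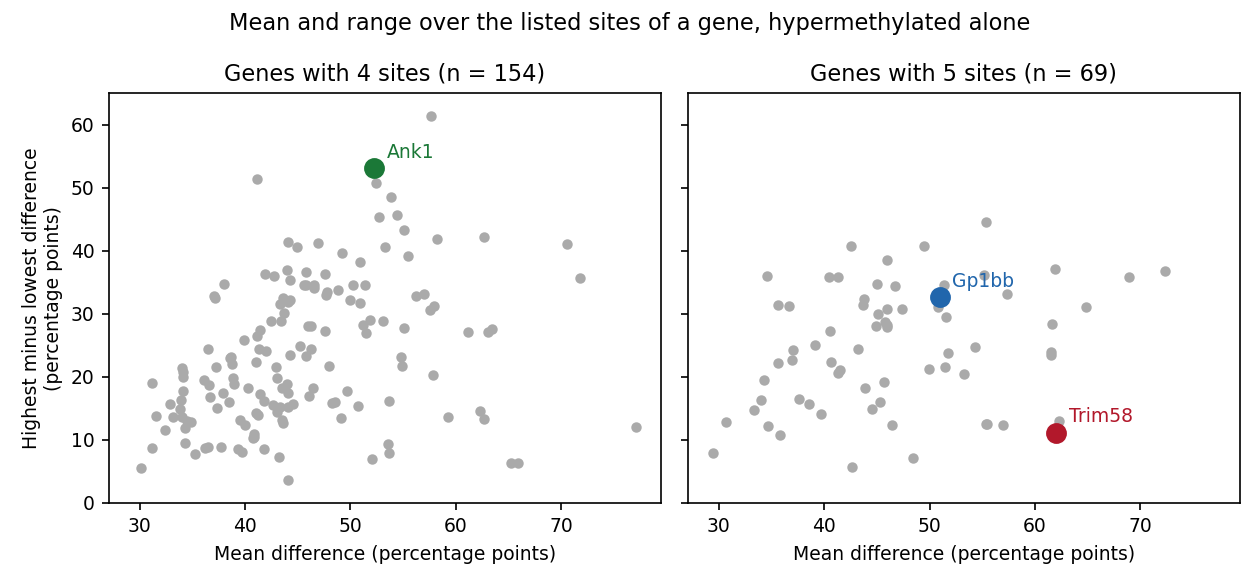
Mean difference (x axis, percentage points) against the highest minus the lowest difference (y axis, percentage points) for each gene with exactly 4 (left) or 5 (right) listed sites, all hypermethylated; each point is a gene and the coloured points are Ank1, Gp1bb and Trim58. Trim58 lies at the lower right (mean 62.0, range 11.1) and Ank1 near the top (mean 52.2, range 53.1).

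The size of the differences varied among the 3 genes. Differences of at least 60 percentage points were found at 4 of 5 Trim58 sites, 2 of 5 Gp1bb sites and 2 of 4 Ank1 sites, beside 12.3% of all 6270 hypermethylated sites. The median hypermethylated site had 41.1 percentage points. All 5 Trim58 sites lay above that median, with 82.0 to 93.8% of all hypermethylated sites below them. The Gp1bb sites fell on both sides, with 31.1% of hypermethylated sites below the lowest and 94.5% below the highest. The Ank1 site of 81.3 percentage points exceeded 98.9% of hypermethylated sites, and its lowest site exceeded 9.14%. No Ank1 site lay within the range of the Trim58 sites.

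**Figure D3:**
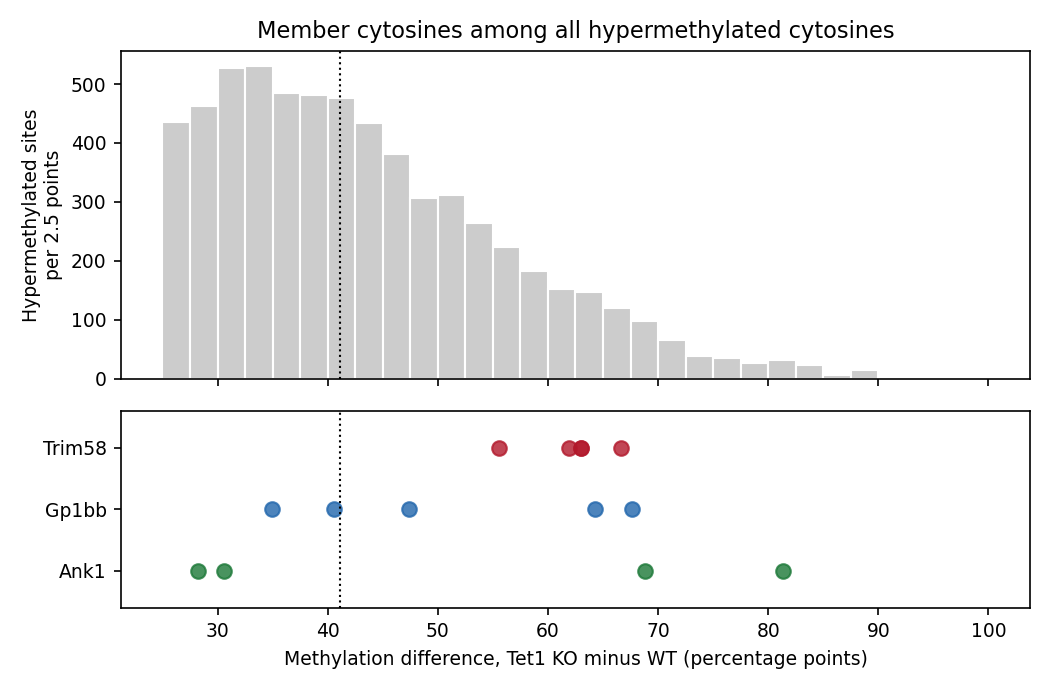
Top, number of hypermethylated sites (y axis) per 2.5 percentage points of methylation difference (x axis). Bottom, each point is a cytosine of Ank1, Gp1bb or Trim58 on the same axis; the dotted line is the median of all hypermethylated sites, 41.1, which all Trim58 sites exceed.

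No listed cytosine assigned to another gene lay within 100 kb of the sites of Trim58, Gp1bb or Ank1, which was also true of 62.2% of all genes in the tables. For Ank1 the nearest such site was the Mir3107 site already described. Unlisted cytosines were not analysed here, so an empty stretch may be unchanged or unread.

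The genes most like each member were taken from genes with the same number of sites, all hypermethylated, by the closest mean. For Trim58 these were Cpne7, with a mean of 61.9 percentage points over 5 sites between 44.1 and 81.2, and Mir671, with a mean of 62.3 over 5 promoter sites between 55.1 and 68.1. For Gp1bb they were Slitrk1 (mean 50.8, all 5 sites in its only exon) and Fam19a2 (mean 51.4, all 5 sites in intron 1 of 4). For Ank1 they were Klhl1 (mean 52.4, all 4 sites in exon 1 of 11) and Snai1 (mean 52.0, all 4 sites intergenic). The Klhl1 sites, in a single region, ran from 27.2 to 78.0 percentage points, nearly as wide as the Ank1 sites (28.2 to 81.3), and the Snai1 sites from 48.4 to 55.4.

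Of 58 genes on an erythroid list, 14 (24.1%) were nearest to a listed site, beside 13.7% of the 21896 protein-coding genes in RefSeq. The 14 include Trim58 and Ank1, which were picked for their many listed sites, leaving 12 other genes. How many cytosines of each gene were read is unknown, so these shares are not compared further. Hypermethylated sites alone were found at 12 of the 14 (85.7%), close to the 87.0% of all genes in the tables. Trim58 and Ank1 had the most sites of the list. Without these 2 genes, the hypermethylated sites of the list had a median of 36.9 percentage points, beside 41.1 over all hypermethylated sites. Sptb (Spnb1 in the files), the erythrocyte beta spectrin that ankyrin binds, had 3 sites averaging 46.5 percentage points, 2 of them in intron 1 of 35. Slc4a1, the band 3 anion exchanger that ankyrin also binds, had 2 sites in exon 10 of 20 where the authors' deposited table gave 43.3 and 44.0 percentage points. Zfpm1, a cofactor of GATA1, had 3 intergenic sites averaging 36.5 percentage points, the closest 12227 bp from its start.

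Among the erythroid genes with sites close to the start, Epor, the erythropoietin receptor gene, had 1 site of 54.0 percentage points in exon 1 of 8 at 237 bp from its start, a place like that of the Trim58 exonic sites. Icam4, a red cell adhesion molecule gene, had sites of 27.3 and 26.9 percentage points at 507 and 640 bp. Hypermethylated sites within 1000 bp of the start were found at 6 of the 14 genes (42.9%), namely Trim58, Epor, Icam4, Sptb, Dmtn and Tmod1, beside 27.5% of all genes in the tables. The same held for 1 of 7 listed megakaryocyte and platelet genes (14.3%), 3 of 9 listed skeleton genes (33.3%) and 5 of 12 listed TRIM family genes (41.7%). Trim58, picked for its listed sites, counts in both the erythroid and the TRIM family share. Car2, a carbonic anhydrase gene, had 1 intergenic site of 43.5 percentage points. Hypomethylated sites alone were found at the other 2 genes, which are named with their values known: Abcb10, a mitochondrial transporter gene (-35.5 percentage points), and Gypc, the glycophorin C gene (-30.0). Each had a single intergenic site, 10739 bp from the Abcb10 start and, in a SINE repeat, 40288 bp from the Gypc start.

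Of 47 genes on a megakaryocyte and platelet list, 7 (14.9%) were nearest to a listed site, beside the same 13.7%. The 7 include Gp1bb, which was picked for its many listed sites. All 7 had hypermethylated sites alone, as did 87.0% of all genes in the tables. Gp1bb had 5 sites, none of them in its own transcript, and the other 6 genes had 1 each. Over those 6 genes the median was 34.3 percentage points, beside 41.1 over all hypermethylated sites. Itgb3, the beta chain of the platelet fibrinogen receptor, had the highest value, 85.1 percentage points in the authors' deposited table, in an intergenic CpG island 77770 bp from its start. Vwf, the gene of von Willebrand factor, the ligand of the glycoprotein Ib receptor, had 57.1 percentage points in intron 13 of 51. Cd9, F2r, Thbs1 and Pear1 had between 27.0 and 37.0 percentage points. Of the 4 genes of the glycoprotein Ib-IX-V receptor (Gp1ba, Gp1bb, Gp9 and Gp5), Gp1bb alone was listed.

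**Figure D4:**
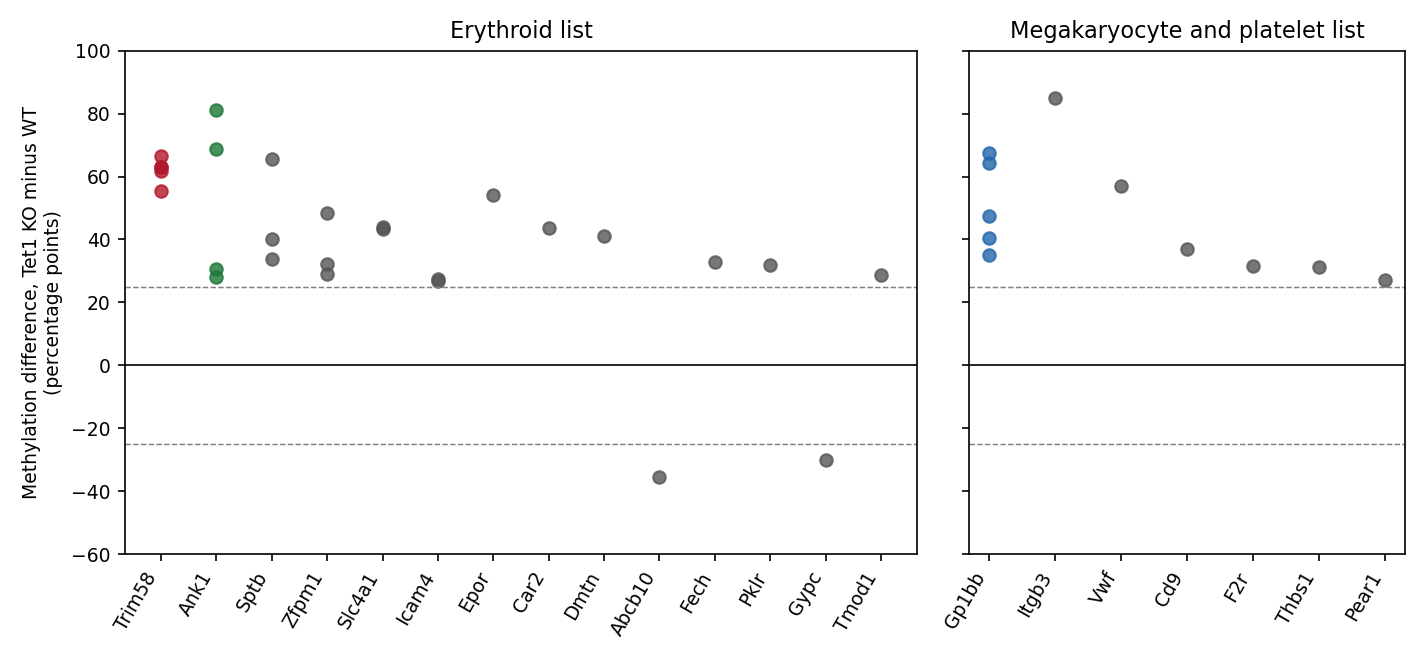
Methylation difference (Tet1 KO minus WT, percentage points, y axis) of every listed site for each listed gene (x axis) of the erythroid list (left, 14 genes) and the megakaryocyte and platelet list (right, 7 genes); each point is a cytosine, and dashed lines mark 25 and -25. Trim58, Ank1 and Gp1bb are coloured, and Abcb10 and Gypc alone lie below 0.

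The TRIM family had 12 of 67 genes (17.9%) in the tables, Trim58 among them, beside 13.7% of all protein-coding genes. Each of the 12 had hypermethylated sites alone, as did 87.0% of all genes in the tables. None but Trim58 had more than 2 sites. Trim66 and Trim62 had 2 each, with means of 34.3 and 33.6 percentage points. Trim8, Trim36, Trim44 and Trim25 had 1 site each, from 42.6 to 52.8 percentage points. They were named for their larger values, and the remaining genes with 1 site had 28.9 to 38.9 percentage points. Without Trim58, the median site of the family had 36.6 percentage points, beside 41.1 over all hypermethylated sites. Of 24 genes of the ankyrin, spectrin and band 3 skeleton, 9 (37.5%) were listed, Ank1 among them, beside the same 13.7%. Of the 9, 6 (66.7%, beside 87.0% of all genes in the tables) had hypermethylated sites alone. Gypc and Epb41l3 (Epb4.1l3 in the files), with 1 intronic site of -33.5 percentage points, had a hypomethylated site alone. Ank2 had 4 hypermethylated sites (mean 38.5 percentage points) and 2 hypomethylated sites (mean -37.9 percentage points), all at least 125229 bp from its start. None was annotated to an Ank2 transcript. A hypomethylated site of -45 percentage points lay in exon 9 of 18 of another gene, Camk2d, and the remaining sites were intergenic. Ank3 had 2 intronic sites averaging 39.2 percentage points.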

How the data were processed

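The deposited tables hold cytosines more (6270) or less (486) methylated in Tet1 KO than in WT LSK cells. The authors' other values per cytosine are, per the file headers, a difference in methylation, read as percentage points from its range, a distance in base pairs to the nearest transcription start, and annotations on mm9. Bismark is named in the submitters' processing notes. The sources used here do not give the caller, its filters or its treatment of replicates. The tables have 0 columns with values per sample, so no test was run and depth and precision are unknown.

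Sites were selected by gene name, joined into regions under 1000 bp and into same-strand clusters under 50 bp, and ranked against genes with equally many sites (Python 3.11.15, pandas 2.3.3). Start positions and sides were computed from positions and absolute distances, because distance signs depended on the strand of the cytosine. Annotated transcripts were matched to genes by accession in RefSeq (GRCm38.p6), for 4186 of 4278 sites. List entries were matched by symbol or older symbol, for 57 of 58 erythroid entries and all of the other lists.

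The members and lists were chosen with earlier results of these data known. Named were the members, owners of annotated transcripts, up to 8 genes per list with the most sites, and the 2 genes with the closest mean. Among list genes with equally many sites, those with the larger mean absolute difference were named first. Of the genes so named, 1 is not reported here.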

Additional observations from a re-analysis of the deposited data

How the results depend on the processing

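Of 31 alternatives, 22 left a result within 1.5 times its count or within 1 SD over sites, and 9 did not. None turned a direction, which was fixed in advance because every member site is on the hypermethylated list. All 12 alternatives for the means were among the 22, but some could not differ. Means of region means had to equal the main mean, with 1 region at Trim58 and Gp1bb and 2 sites per region at Ank1. All 5 Trim58 sites passed a minimum of 40 percentage points. At that minimum the Ank1 mean rose from 52.2 to 75.0, which counted as the same only because its SD over sites was 26.9. At that minimum Ank1 kept 2 sites, the erythroid list 8 genes and the platelet list 3. Forward-strand sites alone left Gp1bb 3, Ank1 2 and the platelet list 4 genes. By annotated transcript Gp1bb had 0 sites. Joining within 200 bp gave 2 regions at Trim58 and 3 at Gp1bb. Averaging read-length clusters, an alternative added after the data were seen, gave 62.0, 50.4 and 52.2 percentage points for Trim58, Gp1bb and Ank1. No paired analysis was possible because the tables hold no values per replicate, and leaving out replicates could not be run for the same reason.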
